A study of Mus musculus with 12 samples.

Results

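GDNF is a ligand secreted by the metanephric mesenchyme. It binds the co-receptor GFRA1 on cells of the ureteric bud, and the complex activates the receptor tyrosine kinase RET. In the bud tip this signal raises the expression of Wnt11, Spry1 and the ETS factor Etv4, and WNT11 in turn maintains Gdnf in the mesenchyme. The loop drives branching of the bud, the epithelium that becomes the collecting ducts, while mesenchyme next to the tips forms renal vesicles and then S-shaped bodies. The members described here are these 6 genes, Gdnf, Ret, Gfra1, Wnt11, Spry1 and Etv4. They were found as the probe sets annotated to exactly 1 of the 6 symbols. Of these, 5 genes had such a probe set (5 of 8251 genes on the array, 7 of 12422 probe sets), and Spry1 had none. Gdnf and Etv4 had 2 probe sets each, and Ret, Gfra1 and Wnt11 had 1 each.

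The values came from 12 Affymetrix MG_U74Av2 arrays of kidney structures microdissected from wild-type Swiss Webster mouse embryos at E14.5 (days of gestation), of unknown sex. There were 4 groups of 3 arrays, namely S-shaped bodies profiled singly (replicates 3, 4 and 5), S-shaped bodies in pools of 20 (replicates 1, 2 and 3), renal vesicles in pools of 20 (replicates 2, 3 and 4), and collecting ducts that were not pooled (replicates 1, 2 and 3). All RNA went through 2 rounds of linear amplification. Which samples shared an embryo is not in the labels, and a p-value here therefore reflects the spread among these samples alone.

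The deposited signal is a linear intensity that can be negative, and its array mean ran from 21.45 to 70.59 in single S-shaped bodies, 203.3 to 238.8 in pooled S-shaped bodies, 108.1 to 130.9 in renal vesicles and 272.5 to 362.7 in collecting ducts. A signal was counted as above background where it was larger than the size of the array's 5th percentile, which is below 0. By this measure 48.3% to 54.4% of probe sets were above background on single S-shaped body arrays and 54.9% to 59.7% on the other 9. The ratio of 3' to 5' actin control signal, a measure of how short the amplified RNA is, was 75.8 to 91.4 in single S-shaped bodies, 31.6 to 46.6 in pooled S-shaped bodies, 36.1 to 43.3 in renal vesicles and 27.7 to 89.4 in collecting ducts. Comparisons used quantile-normalized values on the scale log2(value + 7.22), on which a value at or below 0 takes the floor of 2.85, and folds are on that scale. A probe set was called where limma's moderated test gave a Benjamini-Hochberg adjusted p under 0.05 over the 9316 probe sets tested.

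Most duct markers were high in the samples labelled collecting duct. The mean over 17 ureteric bud and collecting duct markers was 7.87 to 7.98 on the log2 scale in collecting ducts, against 4.42 to 5.76 in renal vesicles, 4.64 to 5.26 in pooled and 4.54 to 4.83 in single S-shaped bodies. Gata3, a transcription factor of the duct lineage, averaged 8.61 ± 0.25 in collecting ducts and Krt8, an epithelial keratin, averaged 11.07 ± 0.15 (log2 signal, SD, n = 3). Ret, Wnt11 and Calb1, which mark bud tips or duct epithelium, were not above background on any of the 3 collecting duct arrays, while Etv4 was on 3 of 3 by probe set 161842_r_at and on 2 of 3 by 92979_at. The mean of 9 nephron progenitor markers was 6.46 to 6.74 in renal vesicles, 5.0 to 5.61 in pooled S-shaped bodies, 5.2 to 5.64 in single ones and 4.49 to 4.54 in collecting ducts. Of these 9, limma called 5 higher in renal vesicles than in collecting ducts and 4 were not called, beside 13.3% of all genes called higher.

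The ligand carried the clearest difference among the members, so the bases just before a Gdnf start are shown. They span 250 bases on the plus strand of chr15:7809798-7810047 (build GRCm38.p6, from RefSeq), which end at the base before the start, with a TATAAA box in capitals.
Gdnf upstream region: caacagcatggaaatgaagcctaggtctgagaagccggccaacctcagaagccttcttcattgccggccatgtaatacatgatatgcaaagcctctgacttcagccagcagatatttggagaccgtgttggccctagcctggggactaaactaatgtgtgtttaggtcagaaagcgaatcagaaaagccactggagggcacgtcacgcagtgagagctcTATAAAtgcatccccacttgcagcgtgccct
The TATAAA hexamer begins 31 bases before the start, and 12.4% of 32851 upstream regions of the same length hold it on either strand. The letters TCAGGTTNC, a site of Six2 and its relatives, did not occur in this window on either strand and occurred in 1.07% of the regions. The letters GCGNGGGCG, a site of Egr and Wt1 proteins, did not occur in it either and occurred in 4.7% of the regions.

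Gdnf was highest in renal vesicles, lower in pooled S-shaped bodies, lower again in collecting ducts, and not above background in single S-shaped bodies. This is the order given by probe set 92738_at. Its deposited signal was 1.2, 2.5 and 1.9 in single S-shaped bodies, where the background level was 3.9, 5.6 and 8.1. Pooled S-shaped bodies gave 75, 104.0 and 142.1. The signal was 259.9, 177.0 and 159.1 in renal vesicles, and 60.2, 62 and 46.2 in collecting ducts. All 9 arrays outside the single S-shaped bodies were above background. The ranges of the 4 groups did not overlap, but the deposited scale itself differed between groups. On it 8298 of 9316 probe sets were called between single and pooled S-shaped bodies. Ranked among the probe sets of its own array, which needs no normalization, Gdnf stood at the 31.5th to 35.6th percentile in single S-shaped bodies, the 61.6th to 69.6th in pooled ones, the 82.6th to 89.3rd in renal vesicles and the 49.4th to 54.1st in collecting ducts. The ranks separate all 4 groups too. Quantile-normalized values follow these ranks, so the ranks are no separate check of the normalized values. The share of all probe sets that separate the groups in this way is not given here.

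**Figure D1:**
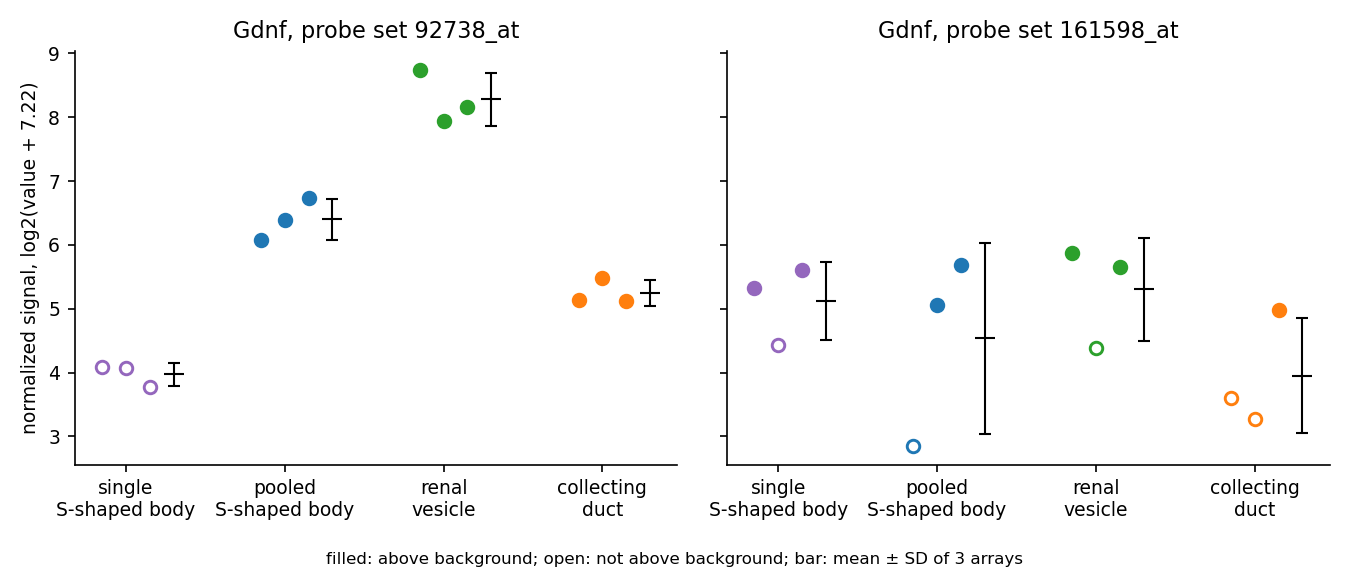
Normalized log2 signal of the 2 Gdnf probe sets (y axis) on each of the 12 arrays by group (x axis), with the mean and SD of 3 arrays beside the points. For 92738_at the renal vesicle arrays lie at 7.94 to 8.75 and the single S-shaped body arrays, all open symbols, at 3.77 to 4.08, while for 161598_at the groups overlap.

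In renal vesicles, Gdnf (92738_at) averaged 8.28 ± 0.42, against 5.25 ± 0.21 in collecting ducts (log2 signal, SD, n = 3 each). The log2 difference was 3.03 ± 0.26 (SE), an 8.17-fold higher level, with an adjusted p of 1.17e-05. Of the 6 member probe sets tested in this comparison, 2 were called, both higher, beside 23.8% of all probe sets (12.2% higher). In a tissue sample, fewer cells of a type and less RNA per cell cannot be told apart.

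Pooled S-shaped bodies lay between the other groups for Gdnf. Gdnf (92738_at) averaged 6.40 ± 0.32 there, against 8.28 ± 0.42 in renal vesicles, a fall of 3.69-fold (log2 difference -1.88 ± 0.26, adjusted p = 0.000261). It was the 1 member probe set of 6 called in that comparison, in which 36.7% of all probe sets were called (19.2% lower). Pooled S-shaped bodies were also 2.21-fold above collecting ducts, which averaged 5.25 ± 0.21 (log2 difference 1.15 ± 0.26, adjusted p = 0.00472). There 2 of 6 member probe sets were called, Gdnf higher and an Etv4 probe set lower, beside 38.5% of all probe sets (18.4% higher and 20.1% lower). The comparisons of renal vesicles and of pooled S-shaped bodies with collecting ducts share the same 3 collecting duct arrays.

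Single S-shaped bodies differed from the pools of the same structure in Gdnf by probe set 92738_at. The normalized signal of 92738_at was 9.7, 9.6 and 6.4 in single S-shaped bodies, against 60.7, 76.4 and 98.8 in pooled ones. The highest single array lay below the lowest pooled array. Since 92738_at was under background on all 3 single arrays, only a bound on the fold can be given, taken against the lowest signal above background on those arrays. The adjusted p beside a bound is that of the measured difference. Gdnf was at least 2.56-fold lower in single than in pooled S-shaped bodies (log2 means 3.97 ± 0.18 and 6.40 ± 0.32, adjusted p = 0.0344). It was 1 of 6 member probe sets called in a comparison where 37 of 9316 probe sets (0.397%) were called, 14 of them (0.15%) lower. Gdnf ranked 20 by p among all of them. This call was lost in 6 of 15 alternatives. Without any 1 of the pooled arrays the adjusted p was 0.168 to 0.196, without single replicate 3 it was 0.0527 and without single replicate 4 it was 0.0807, and with no filter on low signal it was 0.0616. The bound, recomputed with 1 array left out after seeing the data, was 2.28 to 2.85-fold.

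Against renal vesicles, Gdnf (92738_at) was at least 9.44-fold lower in single S-shaped bodies (log2 means 3.97 ± 0.18 and 8.28 ± 0.42, adjusted p = 0.000195). This was the 1 call among 5 member probe sets tested, beside 27.0% of all probe sets (2512, of which 1347 lower). Against collecting ducts it was at least 1.16-fold lower (log2 means 3.97 ± 0.18 and 5.25 ± 0.21, adjusted p = 0.0195), again the 1 call among 5 tested, beside 33.6% of all probe sets (17.7% lower). The call against collecting ducts was lost when any 1 collecting duct array was left out, with adjusted p of 0.0605 to 0.0914. With 1 array left out, after seeing the data, the bound was 1.06 to 1.27-fold against collecting ducts and 8.03 to 10.6-fold against renal vesicles. The mean of the 9 progenitor markers, at 5.2 to 5.64 in single and 5.0 to 5.61 in pooled S-shaped bodies, overlapped between these groups, while the actin 3' to 5' ratio and the deposited signal did not. Their part in the Gdnf difference was not tested.

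The other Gdnf probe set, 161598_at, did not show these differences. Its deposited signal was 3.9, 3.8 and 13.7 in single S-shaped bodies, -0.6, 35.0 and 63.3 in pooled ones, 25.5, 9.9 and 23.0 in renal vesicles, and 9.2, 3.2 and 41.2 in collecting ducts. It was above background on 7 of 12 arrays, 2 of them of single S-shaped bodies, and every pair of groups overlapped. No comparison was called, and none was called under any alternative. For renal vesicles against collecting ducts the log2 difference was 1.35 ± 0.71 with a 95% interval of -0.21 to 2.92 (adjusted p = 0.199). That interval overlaps the one of 92738_at, which was 2.46 to 3.60. For single against pooled S-shaped bodies it was 0.59 ± 0.72, with an interval of -1.07 to 2.25. Here the interval of 92738_at, from -3.20 to -1.65, lay wholly below it. Over the 12 arrays the log2 values of the 2 probe sets had a Pearson r of 0.22.

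Ret, the receptor kinase, was not detected in any structure. The deposited signal of its probe set 101828_at was -3.2, -10.4 and -8.2 in single S-shaped bodies, -11.8, -27.5 and -28.7 in pooled ones, -8.8, -8.5 and -11.9 in renal vesicles, and -40.8, -31.1 and -39.1 in collecting ducts. All 12 values were below 0, and Ret stood between the 2.0th and the 9.0th percentile of its array. All 12 were therefore at the floor, and Ret was removed by the filter on low signal and not tested. A signal below 0 does not show that the transcript is absent, only that this probe set did not register it.

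Gfra1, the co-receptor that binds GDNF, was below the background level in every structure. The deposited signal of 93872_at was -1.6, 0.0 and 1.9 in single S-shaped bodies, 9.9, 8.7 and 11.2 in pooled ones, 3.0, 6.9 and 2.2 in renal vesicles, and 13.3, 16.9 and 21.6 in collecting ducts. None of the 12 arrays was above background. Normalization brought the pooled, vesicle and duct groups to like levels, and no comparison of Gfra1 was called. The log2 difference between renal vesicles and collecting ducts had a 95% interval of -0.96 to 0.32. Between single S-shaped bodies and collecting ducts it was -0.88 ± 0.42 (adjusted p = 0.143), with groups that did not overlap but lay below background.

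**Figure D2:**
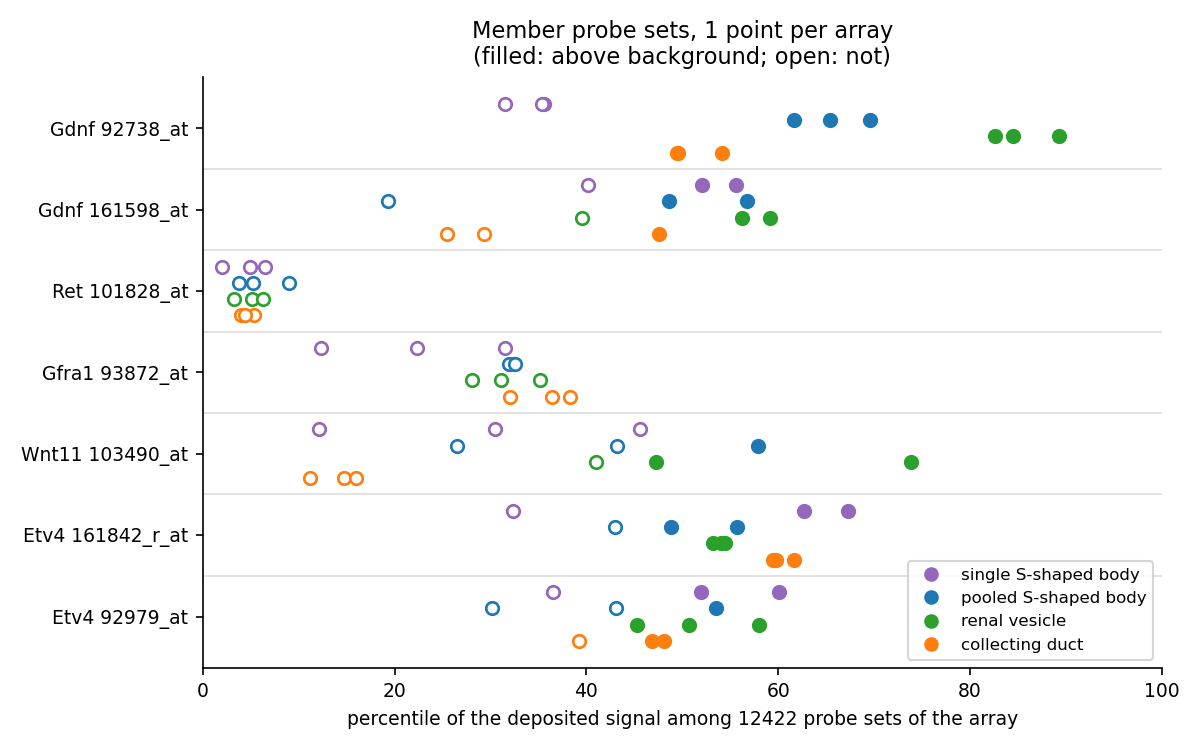
Percentile of each member probe set's deposited signal among the 12422 probe sets of its array (x axis), with 1 point per array, coloured by group, for the 7 member probe sets (y axis). Gdnf 92738_at separates the 4 groups, Ret lies at or below the 9.0th percentile on every array, and the other probe sets overlap between most groups.

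Wnt11, a secreted WNT of the bud tip and a target of RET, was above background on 3 arrays, none of them of collecting ducts. The deposited signal of 103490_at was 2.7, -2.3 and 1.6 in single S-shaped bodies, 4.8, 65.4 and 26.5 in pooled ones, 11.7, 94.4 and 8.1 in renal vesicles, and -13.0, -7.3 and -6.0 in collecting ducts. Renal vesicle replicate 3 and pooled S-shaped body replicate 2 were the highest arrays of their groups, and all collecting duct arrays were at the floor. Wnt11 was called higher in renal vesicles, with a bound of 1.76-fold (log2 means 5.52 ± 1.39 and 2.85 in collecting ducts, adjusted p = 0.017). Vesicle replicate 4, at 8.1, was itself not above its background level of 8.5, and the bound takes its value as measured. Without vesicle replicate 3, the log2 difference was 1.87 (adjusted p = 0.043), against 2.66 with it, and the bound, recomputed without it after seeing the data, was 1.02-fold. Without collecting duct replicate 1 the adjusted p was 0.0505, and with no filter it was 0.0747, so the call was lost in both.

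Pooled S-shaped bodies averaged 4.60 ± 1.21 for Wnt11, against the floor of 2.85 in collecting ducts, and the groups did not overlap. The difference of 1.75 ± 0.69 (adjusted p = 0.067) did not pass the test. It passed in 4 of 15 alternatives, among them the one without pooled replicate 1 (adjusted p = 0.0233). Pooled S-shaped bodies and renal vesicles overlapped, with a log2 difference of -0.92 ± 0.69 and an interval of -2.43 to 0.60.

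Calb1 and the mean of the ureteric and duct markers were highest on the same pooled array and the same vesicle array as Wnt11. Calb1 encodes calbindin, which binds calcium. Its log2 signals were 3.19, 7.70 and 4.34 for pooled S-shaped bodies and 2.85, 8.72 and 3.47 for renal vesicles. It was at the floor on every single S-shaped body and collecting duct array. The pooled and vesicle arrays highest in Wnt11 were thus also the highest in Calb1. The mean of the 17 ureteric and duct markers was 4.64, 5.26 and 4.84 for pooled S-shaped bodies and 4.42, 5.76 and 4.70 for renal vesicles. It was again highest on pooled replicate 2 and vesicle replicate 3, but the 17 include Calb1, so it is not separate from the Calb1 values. The order of the other vesicle arrays differed, since Wnt11 was higher on replicate 2 than on replicate 4 and both Calb1 and the marker mean were lower. On vesicle replicate 3 the mean of 15 stromal markers was also the highest of its group, at 6.68 against 4.98 and 5.71 on replicates 2 and 4. So was that of 7 podocyte precursor markers, at 7.88 against 6.12 and 6.84. The part of these tissues in the Wnt11 result was not tested. Gdnf, in contrast, was lowest of the 3 vesicle arrays on replicate 3 (92738_at, 8.75, 7.94 and 8.16 on replicates 2, 3 and 4).

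**Figure D3:**
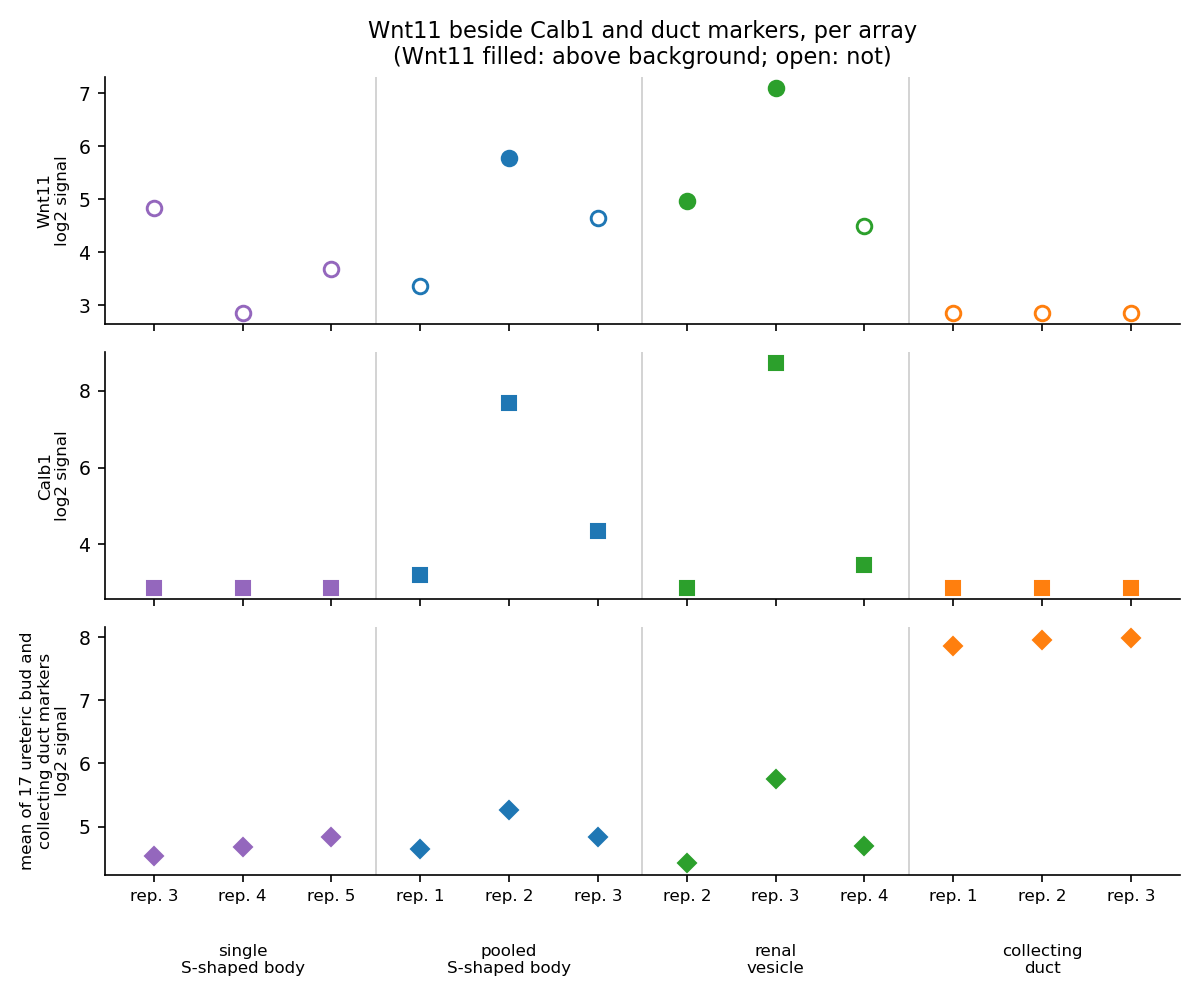
Log2 signal of Wnt11, Calb1 and the mean of 17 ureteric bud and collecting duct markers, which include Calb1 (3 panels, y axes), on each of the 12 arrays in the same order (x axis). Pooled replicate 2 and renal vesicle replicate 3 are the highest of their groups in all 3 panels, while the collecting duct arrays are at the floor for Wnt11 and Calb1 and highest for the marker mean.

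Etv4, an ETS transcription factor downstream of RET, gave different answers with its 2 probe sets. Probe set 161842_r_at, whose suffix marks relaxed rules of probe selection, had a deposited signal of 0.8, 21.0 and 21.3 in single S-shaped bodies, 23.1, 56.8 and 38.9 in pooled ones, 18.9, 27.2 and 18.7 in renal vesicles, and 121.0, 98.8 and 88.7 in collecting ducts. It was above background on 10 of 12 arrays. On the normalized scale collecting ducts averaged 5.98 ± 0.09 and lay above every pooled and vesicle array, while the single S-shaped bodies spread from 3.83 to 6.54 on both sides of them.

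Etv4 161842_r_at was called lower in pooled S-shaped bodies, by 1.83-fold (log2 means 5.11 ± 0.49 and 5.98 ± 0.09 in collecting ducts, difference -0.87 ± 0.27, adjusted p = 0.0238). The call was lost in 6 of 16 alternatives, among them the fit over all 12 arrays (adjusted p = 0.261). It was also lost without any 1 of the collecting duct arrays (0.0525 to 0.0746), without pooled replicate 1 (0.0919) and without pooled replicate 3 (0.0589). In renal vesicles the difference from collecting ducts was -0.51 ± 0.27 and was not called (adjusted p = 0.195). These groups did not overlap, but the share of all probe sets for which that holds is not given here.

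The other Etv4 probe set, 92979_at, read 6.2, 2.8 and 10.7 in single S-shaped bodies, 45.9, 7.3 and 26.3 in pooled ones, 23.7, 15 and 15.9 in renal vesicles, and 54.4, 22.0 and 39.1 in collecting ducts (deposited signal). It was above background on 8 of 12 arrays, all groups overlapped after normalization, and no comparison was called. Its log2 difference between renal vesicles and collecting ducts was 0.50 ± 0.44, opposite in sign to that of 161842_r_at. Over the 12 arrays the log2 values of the 2 Etv4 probe sets had a Pearson r of -0.56, a description of arrays that share their groups.

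**Figure D4:**
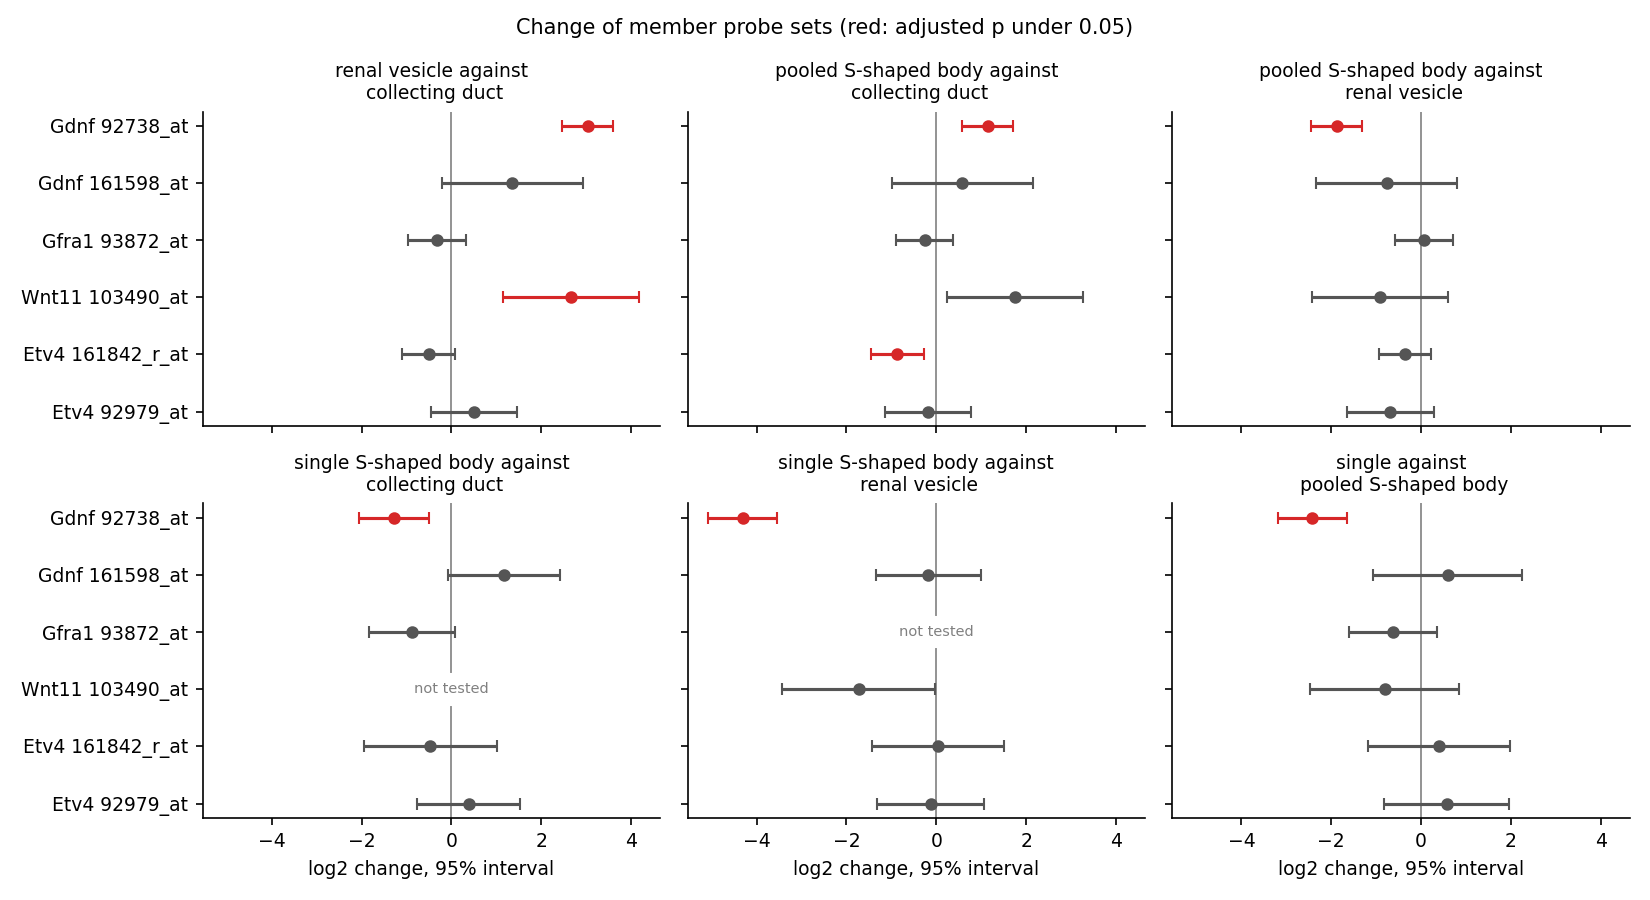
Log2 change with its 95% interval (x axis) of the member probe sets (y axis) in the 6 comparisons, 1 panel each, with calls in red and Ret left out because it was not tested. Gdnf 92738_at is called in all 6 panels, from 3.03 for renal vesicle against collecting duct to -4.31 for single S-shaped body against renal vesicle, and in the panels of single S-shaped bodies the drawn changes of Gdnf 92738_at are measured differences and not the bounds.

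Of 8 listed ligands and co-receptors of the GDNF family other than the members, 5 were measured, 3 or 4 were tested in each comparison, and limma called 0 in any of the 6. Over all genes the share called was 35.0%, 27.8% and 0.327% in single S-shaped bodies against collecting ducts, renal vesicles and pooled S-shaped bodies, 40.2% and 38.4% in pooled ones against collecting ducts and renal vesicles, and 25.5% in renal vesicles against collecting ducts. At an unadjusted p under 0.05 the count was 1, in pooled S-shaped bodies against renal vesicles, and 0 in the other 5 comparisons. Nrtn, which encodes the related ligand neurturin, averaged 6.45 ± 0.34 in single S-shaped bodies, 6.50 ± 0.12 in pooled ones, 5.94 ± 0.33 in renal vesicles and 6.41 ± 0.19 in collecting ducts. Gfra3, the co-receptor of artemin, averaged 6.32 ± 0.31, 5.76 ± 0.22, 5.77 ± 0.16 and 5.99 ± 0.17 in the same order (log2 signal, SD, n = 3). Both were above background on all 12 arrays. In collecting ducts the Gfra3 probe set was thus above background and that of Gfra1 was not. Signals of different probe sets do not compare the levels of their genes, and this does not show that Gfra1 is absent.

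Genes known to respond to RET in the bud tip or to mark it moved in different directions. Of 12 listed, 7 were measured and 6 were tested between renal vesicles and collecting ducts, where 2 rose, 0 fell and 4 were not called, beside 25.5% of all genes called. The median log2 difference was 0.51, against -0.01 over all genes. Lhx1, a homeobox factor that is also an early nephron gene, was at least 5.59-fold higher in renal vesicles, at 7.19 ± 0.32, with all collecting duct arrays at the floor (adjusted p = 1.86e-06). Myb averaged 6.15 ± 0.49 in renal vesicles and 4.79 ± 0.38 in collecting ducts (adjusted p = 0.0117).

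Between pooled S-shaped bodies and renal vesicles 1 gene of this list rose and 2 fell, where 38.4% of all genes were called. Mmp14, a membrane-bound matrix protease, averaged 9.36 ± 0.08 in pooled S-shaped bodies and 7.93 ± 0.31 in renal vesicles (adjusted p = 0.000253). Myb was at least 2.79-fold lower in pooled S-shaped bodies (adjusted p = 7.23e-05), and Lhx1 fell 3.16-fold (adjusted p = 0.00104). Cxcr4, a chemokine receptor, was called in 1 comparison, higher in pooled S-shaped bodies than in collecting ducts (adjusted p = 0.00489), where 40.2% of all genes were called. Its bound was 1.06-fold, with 2 of the 3 pooled arrays above background.

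Of 6 listed feedback inhibitors of the Sprouty kind 3 were measured, and across the 6 comparisons the 1 call was Dusp6, a phosphatase of ERK. Dusp6 averaged 7.31 ± 0.13 in single S-shaped bodies and 8.88 ± 0.46 in collecting ducts, a fall of 2.98-fold (adjusted p = 0.00191), where 35.0% of all genes were called. Its arrays did not overlap between these groups. Single S-shaped bodies also lay below pooled ones and renal vesicles in Dusp6, with log2 differences of -0.95 (adjusted p = 0.162) and -0.96 (adjusted p = 0.0595) that did not pass the test. Spry4, a relative of the unmeasured Spry1, averaged 6.37 ± 0.42 in single S-shaped bodies, 6.73 ± 0.21 in pooled ones, 6.33 ± 0.60 in renal vesicles and 6.80 ± 0.11 in collecting ducts, with no call.

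Of 21 listed components that relay the RET signal inside the cell, 12 were measured and 10 tested. Between renal vesicles and collecting ducts 1 rose, 1 fell and 8 were not called, a share near or under the 25.5% of all genes called there. Gab1, a docking protein, averaged 8.17 ± 0.25 in renal vesicles and 9.04 ± 0.23 in collecting ducts (adjusted p = 0.00545). Pik3ca, a catalytic subunit of PI 3-kinase, averaged 7.26 ± 0.15 in renal vesicles and 6.12 ± 0.19 in collecting ducts (adjusted p = 0.00119). A further Pik3ca probe set was also higher in vesicles (log2 difference 0.86, adjusted p = 0.0187), while a further Gab1 probe set was not called (-0.78, adjusted p = 0.211). Pooled S-shaped bodies against collecting ducts gave 2 higher and 2 lower, a share near the 40.2% of all genes called there, and the adaptor Shc1 was at least 2.64-fold higher in pooled S-shaped bodies (adjusted p = 0.0127).

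**Figure D5:**
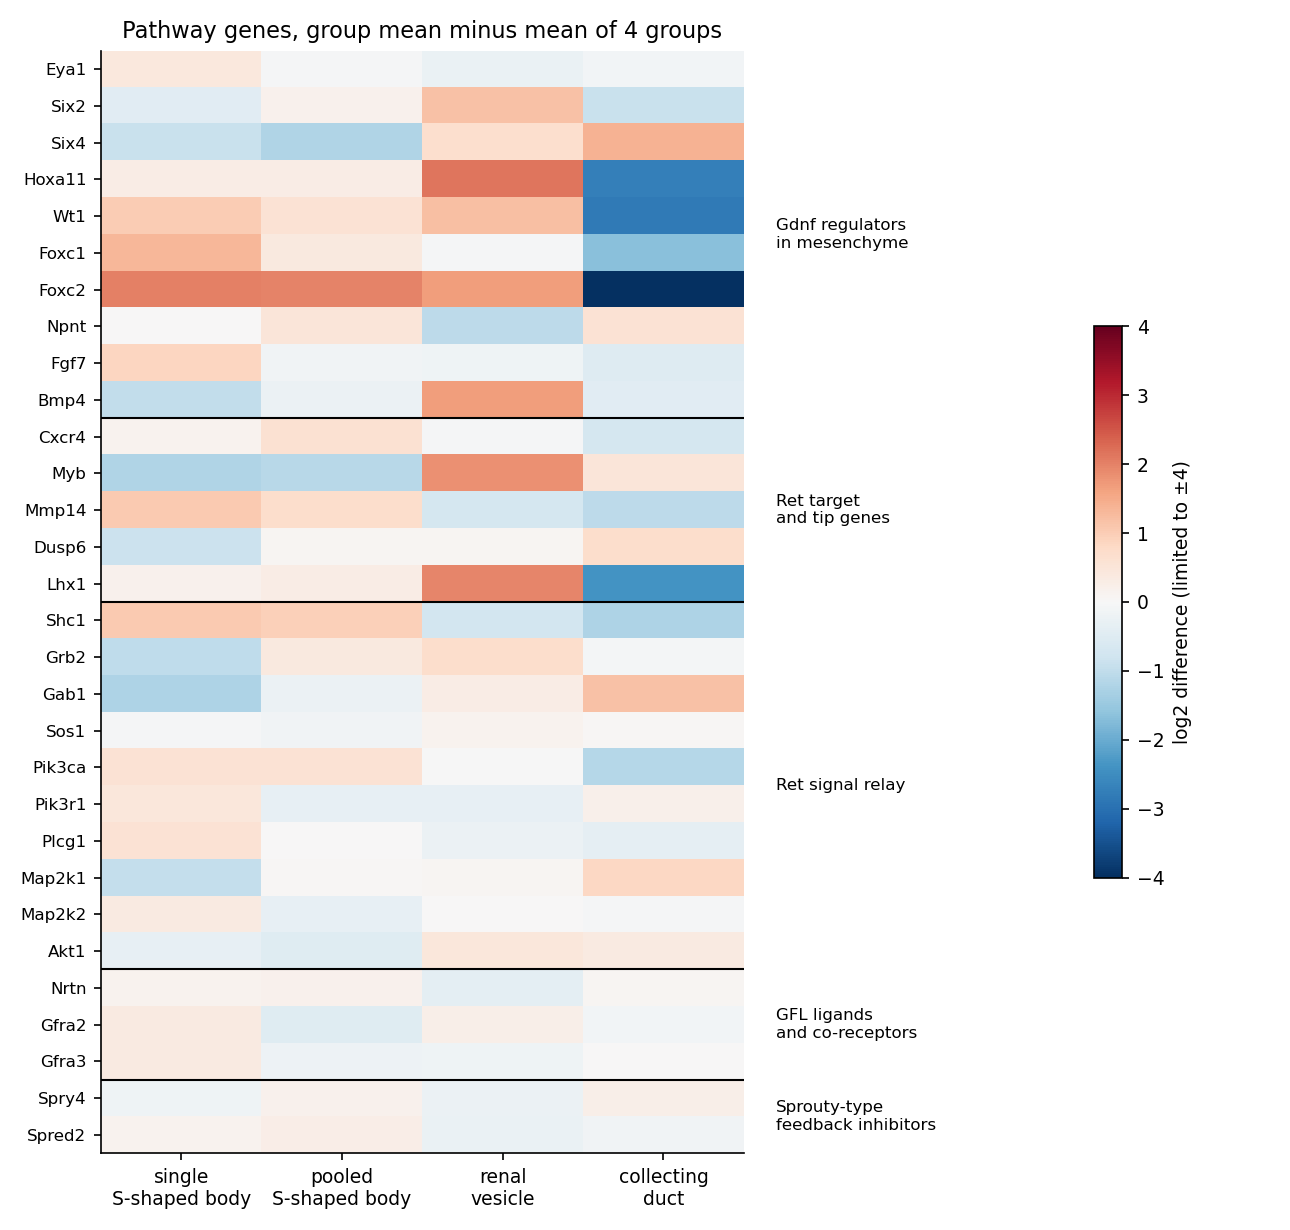
Mean log2 signal of each group minus the mean of the 4 groups (colour, limited to ±4) for the 30 listed pathway genes above background on at least 2 arrays of a group (rows, by list) in the 4 groups (columns). Lhx1, Hoxa11, Six2 and Bmp4 are highest in renal vesicles, Foxc2 and Wt1 are low in collecting ducts alone, and the rows of Nrtn, Gfra3 and Spry4 are pale.

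Genes that act on Gdnf or its signal in the mesenchyme were partly higher in the nephron structures than in ducts and partly not called. Of 25 listed, 18 were measured and 14 tested between renal vesicles and collecting ducts, where 6 rose, 1 fell and 7 were not called, beside 25.5% of all genes called (13.3% higher). Against collecting ducts 5 of 12 rose and 1 fell in single S-shaped bodies, where 35.0% of all genes were called, and 5 of 14 rose and 1 fell in pooled ones, where 40.2% were. For renal vesicles the median log2 difference was 1.05, or 0.17 with the 6 genes under background on all arrays of 1 group put at their bounds (at 0 where the bound gave no fold), against -0.01 over all genes. The list holds activators of Gdnf such as Hoxa11 and Six2 as well as genes known to limit Gdnf or its action, such as Foxc1, Foxc2 and Bmp4.

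The homeobox factor Six2, which marks nephron progenitors and activates Gdnf, averaged 7.96 ± 0.03 in renal vesicles and 5.91 ± 0.09 in collecting ducts (adjusted p = 3.57e-05). Eya1, another of the progenitor markers, was not called, at 6.22 ± 0.15 and 6.38 ± 0.17 (adjusted p = 0.593). Renal vesicles had at least 10.3-fold more Hoxa11 signal (adjusted p = 3.2e-07), and Foxc2 was at least 54.0-fold higher (adjusted p = 3.32e-08). Wt1, a zinc-finger factor of mesenchyme and podocytes, was 16.3-fold higher (adjusted p = 4.53e-05), with its highest vesicle array on replicate 3, at 9.98 against 7.94 and 8.50. Bmp4, which counters bud outgrowth, averaged 10.26 ± 0.04 in renal vesicles and 8.14 ± 0.10 in collecting ducts (adjusted p = 0.0001). Npnt, an integrin ligand made by the duct, fell 3.05-fold in vesicles (adjusted p = 0.0048).

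Between pooled S-shaped bodies and renal vesicles 1 of these 14 genes rose, 4 fell and 9 were not called, a share near the 38.4% of all genes called there. Six2 averaged 6.96 ± 0.36 in pooled S-shaped bodies and 7.96 ± 0.03 in renal vesicles (adjusted p = 0.00279), and Hoxa11 averaged 6.21 ± 0.15 and 8.07 ± 0.13 (adjusted p = 0.000252). Wt1, at 8.17 ± 0.26 and 8.81 ± 1.06, was not called there, nor was Foxc2, at 10.78 ± 0.08 and 10.46 ± 0.43. Between single S-shaped bodies and renal vesicles 0 rose, 3 fell (Hoxa11, Bmp4 and Six2) and 11 were not called, where 27.8% of all genes were called. Between single and pooled S-shaped bodies, where Gdnf 92738_at was called lower, limma called 0 of 13 (1 at an unadjusted p under 0.05), beside 22 of 6733 genes (0.327%). Six2 averaged 6.32 ± 0.83 in single and 6.96 ± 0.36 in pooled S-shaped bodies, and Hoxa11 6.21 ± 0.30 and 6.21 ± 0.15.

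The S-shaped body samples held signal of further cell types. The mean of 12 endothelial markers was 8.07 to 8.67 in single S-shaped bodies, 8.47 to 8.85 in pooled ones, 5.0 to 6.04 in renal vesicles and 3.64 to 3.86 in collecting ducts. That of 15 stromal markers was 6.99 to 7.36, 7.11 to 7.20, 4.98 to 6.68 and 3.66 to 3.84 in the same order. These lists were higher in both kinds of S-shaped body than in renal vesicles, while Gdnf 92738_at was lower. The mean of 13 early nephron markers was lower there too, as Gdnf was. It was 5.40 to 5.73 in single and 5.48 to 5.54 in pooled S-shaped bodies, against 6.94 to 6.96 in renal vesicles. In collecting ducts it was 4.30 to 4.56. The part of these lists in that Gdnf difference was not tested. All of these lists overlapped between single and pooled S-shaped bodies, where Gdnf did not.

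The genes whose log2 pattern over the 12 arrays was most like that of Gdnf 92738_at, among 8282 probe sets with 1 symbol and a mean signal at or above the 25th percentile, were Cenpa (Pearson r of 0.94), a centromeric histone, H2ax (0.93), a histone of the DNA damage response, and Ipo11 (0.93), a nuclear import receptor. For the other Gdnf probe set they were Tac2 (0.85), Stc1 (0.84) and E2f3 (0.78), with no name in common. For Wnt11 they were Fam216a (0.86), Tenm3 (0.83) and Ppp2r5a (0.83). For Etv4 161842_r_at they were Glul (0.97), Lrp2 (0.93) and Dhps (0.91), and for Etv4 92979_at Rhoj (0.87), Nfatc2ip (0.85) and Tyrp1 (0.85). Rhoj and Tyrp1 were above background on 0 of the 12 arrays. These values describe 12 arrays that share 4 groups and a common normalization. Wnt11 and Gdnf 92738_at had an r of 0.59.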

How the data were processed

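Affymetrix MG_U74Av2 arrays of 12 samples were measured. The authors deposited 1 linear intensity per probe set and array, negative in part. Per the submitters' processing notes GCOS was used. Not given in the sources used here are its summary and scaling settings. Probe sets were named from the platform annotation (10833 with 1 symbol, 396 with several, 1193 with none), and 66 control probe sets were left out.

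The 12 arrays were quantile normalized with limma 3.58.1 in R 4.3.3, floored at 0 and put on log2 after adding 7.22 (25% of the median). Probe sets under the 25th percentile of mean signal in the arrays of a fit were left out. The 9 arrays other than single S-shaped bodies shared a fit, and each comparison with the single ones used 6, with eBayes and trend. The test was checked on simulated data. A bound on a fold sets the brighter mean against the lowest log2 signal above background, or the dim probe set's own where higher. It carries no sampling error, and the adjusted p beside it tests the measured difference and not the bound. No 2 arrays held identical values (0 pairs). Replicate numbers recur across groups, but same-numbered arrays did not deviate together (correlations of -0.08 to 0.05), so no pairing was used.

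The members and all gene lists were chosen with earlier results of these data known. The text names all member probe sets, and from each list with 1 probe set per gene (the highest mean) at most 4 called genes per comparison, the largest first, plus Gata3, Six2, Wt1 and Lhx1 where a result turned on them. Calb1, Krt8, Nrtn, Gfra3, Spry4 and Npnt, and genes named beside a comparison that did not call them, were chosen after their values were seen. Foxc2, Bmp4, Eya1, Myb, Dusp6 and Shc1 had 2 probe sets each, and the one with the lower mean is not described. For each member above background on at least 3 arrays the 3 most alike genes are named. Settings for normalization, pseudocount, filter, fit and left-out arrays were varied. Wherever groups are said not to overlap, the share of all probe sets that do not overlap between them is not given, and it adds nothing to the test. The number of arrays limits the precision.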

Additional observations from a re-analysis of the deposited data

How the results depend on the processing

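Gdnf 92738_at kept its direction in every alternative run, and its calls in renal vesicles and pooled S-shaped bodies against collecting ducts, in pooled S-shaped bodies against renal vesicles and in single S-shaped bodies against renal vesicles held in all 15 or 16 of them. On the deposited scale, without normalization between arrays, the member probe sets called numbered 4 in renal vesicles against collecting ducts, and 4, 2 and 5 in single S-shaped bodies against collecting ducts, renal vesicles and pooled S-shaped bodies. Over all 9316 probe sets tested on that scale, the calls in these comparisons numbered 7254, 8259, 4300 and 8298, in the same order. With no filter the member probe sets called numbered 1 in renal vesicles against collecting ducts and 0 in single against pooled S-shaped bodies. Of all 12422 probe sets, 1914 and 28 were called there. With the filter at the 50th percentile, which left 2 and 1 member probe sets tested, those called numbered 1 in renal vesicles and 0 in single S-shaped bodies against collecting ducts. Of the 6211 probe sets then tested, 1951 and 2703 were called. With all 12 arrays in one fit the number of member probe sets called was 1 in pooled S-shaped bodies against collecting ducts, beside 2893 of all 9316. With the replicate number as a block the number was 0 in single S-shaped bodies against collecting ducts, beside 2764 of all 9316. Gdnf had an adjusted p of 0.0623 there in the block. This fit with the replicate block changed no other call of Gdnf 92738_at, and over all probe sets it gave 1372 calls in renal vesicles against collecting ducts (2213 without it). Between single and pooled S-shaped bodies the calls over all probe sets, 37 as reported, numbered 426 with all 12 arrays in one fit, 85 in that fit with the block, 141 after scaling to the 75th percentile, 8298 on the deposited scale and 1 to 62 with 1 array left out. The deposited scale moved the median log2 difference of all probe sets to between -2.56 and 0.95. Leaving out 1 array at a time gave 1 to 2 member probe sets called in renal vesicles and 1 to 2 in pooled S-shaped bodies against collecting ducts, and 0 to 1 in single S-shaped bodies against collecting ducts and against pooled ones. Of all 9316 probe sets, these fits called 1640 to 2272, 2886 to 3125 and 2117 to 3290 against collecting ducts, in the same order. The causes were not tested. With the background level set by the lowest 10% of values, chosen after seeing the data, Gfra1 was above background on 4 arrays (0 as reported) and Wnt11 on 6 (3 as reported). With the lowest 2.5%, also chosen then, Etv4 92979_at was above it on 3 arrays (8 as reported), Gdnf 161598_at on 4 (7 as reported) and Wnt11 on 2. Signal near or below background limits Ret, Gfra1, Wnt11 and Gdnf in single S-shaped bodies.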
